A study of Mus musculus with 40 samples.

Results

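The proteins of the cytosolic ribosome are encoded by the Rps genes of the small subunit and the Rpl genes of the large subunit, and the mouse genes of both kinds were followed here across T cells from 10 anatomical sources. A gene was counted as a member when its symbol had the form of an Rps or Rpl gene with a number, or was Rplp0, Rplp1, Rplp2 or Rpsa, and when it had at least 1 count in any library. Of 55421 rows in the count table, 89 symbols fitted and 1 of these, Rps12l1, had 0 counts in every library, which left 88 members: 35 of the small subunit and 53 of the large. By annotation 83 were protein coding and 5 were pseudogenes (Rps3a2, Rps3a3, Rps4l, Rpl6l and Rpl32l). Mitochondrial ribosomal proteins carry other symbols and were not members.

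The study profiled regulatory T cells (Treg) and conventional CD4+ T cells (Tconv) of WT mice by QuantSeq, which counts reads near the 3′ end of mRNA. The animals were perfused, and 2000 cells per library were sorted as CD4+ Foxp3Thy1.1+ (Treg) or Foxp3Thy1.1- (Tconv), so that Treg and Tconv came from animals with the same Foxp3 reporter and no treatment other than perfusion and tissue digestion is given. Each of 10 sources had 3 Treg libraries and 1 Tconv library: blood, spleen and lymph node (called lymphoid here), kidney, liver, lung, pancreas and small intestinal IEL and LPL (called tissue; IEL and LPL together are called gut wall), and Peyer's patch, which was compared on its own. The age and sex of the animals and which libraries came from the same animal are not given in the sources used here. The p-values therefore measure the spread between these samples. In the main edgeR fit of Treg this is the spread between libraries within a source, not the spread between the sources of a group. Sorting matched the labels: Foxp3 ran from 68.4 to 306 CPM (counts scaled to the size of the library by the TMM method of edgeR) in the 30 Treg libraries and from 0.158 to 6.66 CPM in the 10 Tconv libraries, and Cd3e and Cd4 were present in all 40.

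Ribosomal proteins are made in the cytoplasm, carried into the nucleolus, assembled on ribosomal RNA and exported as the small and large subunits. Their mRNAs are short, abundant and stable, and most begin at a C followed by a run of pyrimidines, the terminal oligopyrimidine (TOP) tract, through which mTORC1 signalling sets how actively they are translated. T cells enlarge their ribosome pool when they leave quiescence, with MYC and mTORC1 as known regulators.

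The annotated start sites showed this feature in a part of the members. RefSeq start sites on GRCm38.p6 were matched for 64 of the 88 members, and a tract was counted when a C followed by at least 5 further C or T began within 10 bases of an annotated start on the gene's own strand. A tract was found in 35 of the 64 (54.7%), against 5702 of 27025 genes in the whole table (21.1%). On the opposite strand the same letters were found in 5 of the 64 members (7.81%) and in 24.3% of all genes. A match is a description of these letters and not a mapped start. Rps21 has another annotated start, which holds no tract. Rpl22 has no tract at any of its annotated starts, of which the most upstream is printed. The windows of 30 bases printed here run from 10 bases before to 20 after the annotated start, 5′ to 3′, with the tract in capitals. The first 4 belong to the genes with some of the clearest differences described later, to the stalk protein P2 and to a kinase target. The next pair is a paralog pair, in which Rpl22l1 has a match and Rpl22 has none. The last 2, the abundant Rplp0 and the paralog Rpl7l1, have no match either.
Rps27 (chr3:90213629-90213658, minus strand): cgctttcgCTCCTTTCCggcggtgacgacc
Rps21 (chr2:180257369-180257398, plus strand): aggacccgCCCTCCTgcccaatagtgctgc
Rplp2 (chr7:141447641-141447670, plus strand): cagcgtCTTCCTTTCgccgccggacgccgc
Rps6 (chr4:86857348-86857377, minus strand): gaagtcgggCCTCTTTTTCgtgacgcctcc
Rpl22l1 (chr3:28805498-28805527, plus strand): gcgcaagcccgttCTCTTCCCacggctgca
Rpl22 (chr4:152324426-152324455, plus strand): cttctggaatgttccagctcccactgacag
Rplp0 (chr5:115559457-115559486, plus strand): cgggtttcgaggaccgcctggttctcctat
Rpl7l1 (chr17:46782637-46782666, minus strand): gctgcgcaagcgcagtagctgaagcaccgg
The medians of members with and without a tract lay close together. In the comparison of tissue with lymphoid Treg described later, the 35 tested members with a tract had a median log2 fold change of -0.86 and the 27 tested members of the table without it had -0.80.

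Summed over all members, the ribosomal protein genes took a share of a library's counts that ran from 0.844% ± 0.176 in IEL Treg to 3.20% ± 0.736 in lymph node Treg (SD, n = 3). The libraries held 12197980 to 28823493 counts each, of which 187247 to 977447 fell on the members. The other Treg sources lay between: LPL 1.002% ± 0.127, pancreas 1.49% ± 0.570, Peyer's patch 1.64% ± 0.366, kidney 1.79% ± 0.780, liver 2.43% ± 0.440, spleen 2.63% ± 0.279, lung 2.78% ± 0.549 and blood 3.07% ± 0.234. Of the 9 neighbouring pairs in this order, the ranges of the libraries overlapped in all but LPL against pancreas. Within kidney the 3 libraries had 2.69%, 1.39% and 1.30%, and within pancreas 1.16%, 1.17% and 2.15%, so that 1 library stood above the other 2 in each of these organs. The members' share in lymph node was 3.70%, 2.36% and 3.55%.

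**Figure D1:**
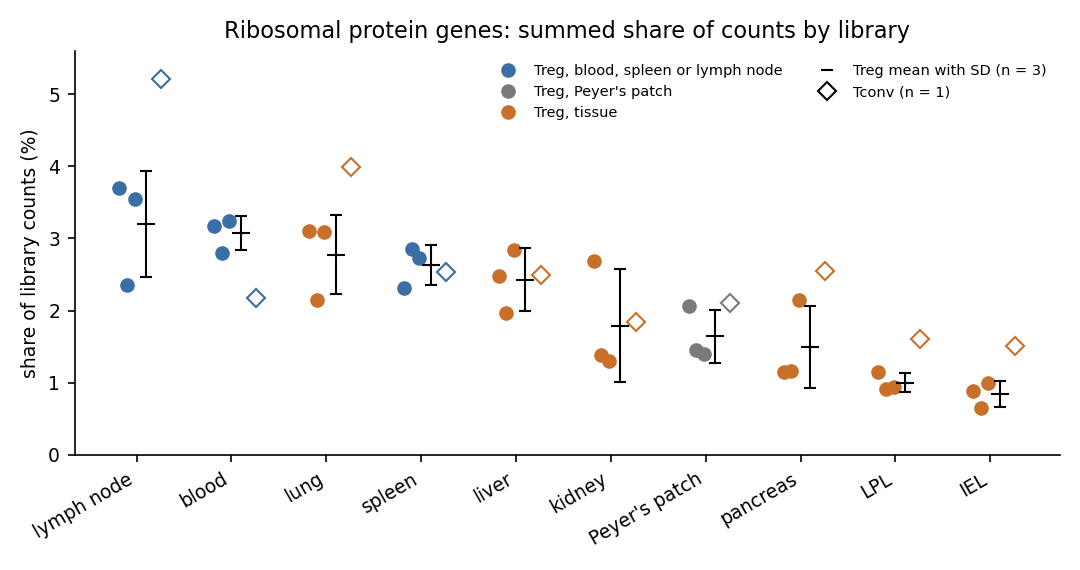
Share of each library's counts that fell on the 88 ribosomal protein genes (vertical axis, percent), by source in order of the Treg mean; circles are Treg libraries, bars the Treg mean with SD (n = 3) and diamonds the single Tconv library. IEL and LPL Treg lie between 0.650% and 1.15%, below every lymphoid Treg library (2.32% to 3.70%).

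Over source means, the share averaged 1.72% in the 6 tissues and 2.97% in the 3 lymphoid sources, a difference of -1.25 percentage points (exact two-sided permutation test over source means, p = 0.0476; the smallest p this design allows is 0.0238). Without IEL and LPL the difference was -0.845 and p was 0.114 (exact permutation test). With so few source means this test cannot give a p under 0.05. Loss of the call was therefore fixed in advance and does not show the part of the gut wall. The call was also lost without liver Treg replicate 3 (-1.21) and without lung Treg replicate 5 (-1.19), each with an exact p of 0.0714. In Tconv, with 1 library per source, the shares averaged 2.33% and 3.31%, and the difference of -0.975 had an exact permutation p of 0.286. Peyer's patch, at 1.64% in Treg, was in neither group, and a lymphoid group that includes it was not tested. In bulk samples a smaller ribosomal protein mRNA pool per cell and a smaller fraction of cells with a large pool cannot be told apart, and a share of counts also moves with what the rest of the transcriptome does.

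Gene by gene, the members moved as a block. Of the 88, 85 passed the filter on low counts in the Treg fit; Rpl10l (71 counts over all libraries), Rpl3l (33) and Rpl6l (27) did not. By edgeR's quasi-likelihood test with Benjamini-Hochberg adjustment over 17909 genes, 75 of the 85 members were lower in tissue than in lymphoid Treg and 1 was higher, where 9.98% of all genes tested were lower and 11.9% higher. The median log2 fold change was -0.85 for the members and 0.03 for all genes. All 31 small-subunit and 44 of 47 large-subunit coding genes with a mean of at least 10 CPM were lower, with medians of -0.96 and -0.78. For each of the 85 members the range of the 18 tissue libraries overlapped that of the lymphoid libraries. Over all genes 0.00558% lay below and 0.0726% above the lymphoid libraries without overlap. These counts depend on which tissues and which reference are used. Without IEL and LPL 7 members were lower (4.17% of all genes, member median -0.40). With spleen as the only reference 23 were lower (3.8% of all genes), and with lymph node as the only reference 58 (9.41%). When the counts of a source were summed to 1 library, 0 were lower (24 at an unadjusted p under 0.05, median -0.76). The share of all genes with summed counts is not reported here, so this 0 is not read as a result about the members.

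Among small-subunit proteins, Rps21 had the smallest p. Its level in the 9 lymphoid Treg libraries ran from 95.4 through a median of 131 to 177 CPM and in the 18 tissue Treg libraries from 15.4 through 46.7 to 169 CPM. The tissue median was below the whole lymphoid range, while the highest tissue library was inside it. The log2 fold change of Rps21 was -1.22 ± 0.19 (SE, edgeR, adjusted p = 7.04e-05). Rps20, which lies in the head of the small subunit, ran from 280 through 370 to 455 CPM in lymphoid and from 41.2 through 133 to 474.5 CPM in tissue libraries (-1.16, edgeR adjusted p = 9.22e-05). Rps27, a zinc-finger protein, was at 329 to 670.5 CPM in lymphoid libraries and at 54.5 to 717 CPM in tissue libraries, and fell by 1.19 on the log2 scale.

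Members with roles beyond the ribosome body moved in the same direction. Rps27a, made as a fusion to ubiquitin, fell by 1.05, from a lymphoid median of 277 CPM to a tissue median of 117 CPM. Rps6, the substrate of the S6 kinases, had medians of 416 and 242.5 CPM and fell by 0.60. Rpsa, also known as the precursor of a laminin receptor, had medians of 691.5 and 557 CPM, with overlapping ranges, and fell by 0.54. Rps3, which sits at the mRNA entry channel, was among the 3 most abundant members per 3′ count and fell by 0.69.

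In the large subunit, the acidic stalk that recruits translation factors is built from Rplp0, Rplp1 and Rplp2. Rplp0, the member with the highest mean level, ran from 924 through 1523 to 2529 CPM in lymphoid Treg and from 469 through 1164 to 2175 CPM in tissue Treg, so the ranges overlapped widely. Its log2 fold change was -0.48 ± 0.13 (edgeR, adjusted p = 0.0106), and with spleen as the only reference it was 0.07. Spleen had the lowest lymphoid Rplp0 level, 1034 ± 96.9 CPM against 2004 ± 736 CPM in lymph node (SD, n = 3). Rplp1 and Rplp2 fell more, by 0.94 and 0.89. Their medians went from 488 to 245 CPM and from 356 to 165 CPM.
Rpl5 and Rpl11, which carry 5S ribosomal RNA into the large subunit and can bind Mdm2, fell by 0.60 and 0.78. Rpl5 was at 117 to 183 CPM in lymphoid and 42.3 to 219 CPM in tissue libraries. Rpl36a, a small X-linked large-subunit gene, fell by 1.07. Rpl4, next to Rplp0 the most abundant member, had a log2 fold change of -0.37 and did not pass (edgeR, adjusted p = 0.0545).

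The 9 members that did not pass included several with few counts. Besides Rpl4 they were Rpl23a (-0.85, edgeR adjusted p = 0.0538), Rpl13a (-0.21), Rps10 (0.05), Rpl24 (-0.45), Rpl39l (0.69) and the pseudogenes Rps3a2 (0.73), Rps3a3 (-0.37) and Rpl32l (-1.55). Rps10 and Rpl24, which the ribosome needs in the same amount as its other proteins, had only 1559 and 233 counts in all 40 libraries, a mean of 1.83 and 0.270 CPM. Of the last 300 bases of their transcripts, 70.1% and 81.3% of the 50-base words were also found in other genes. This measure was 100% for Rps27, with a mean of 361 CPM, and 0% for Rpl13a, with 14.0 CPM. The part of shared words in the low counts was not tested. Over all members, 45 of the 83 coding ones had more than 50% of these words in common with other genes, and reads that fit several genes may have been set aside or split by the authors' counting. Among coding members with a mean of at least 10 CPM, the 19 with no shared word gave 17 lower calls and a median of -0.73. The 43 with mostly shared ends gave 42 and -0.86. Rps10, Rpl24 and Rpl39l lie below that level and were not counted here. Rpl13a, Rpl23a, Rps10, Rpl24 and Rps3a3 were singled out after their values were seen.

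Ribosomal protein paralogs mostly followed their partners. Rpl22, which is needed for development of alpha-beta T cells, fell by 0.86 and its paralog Rpl22l1 by 0.85. Rpl22 was at 104 to 159 CPM in lymphoid and 22.5 to 173 CPM in tissue Treg, Rpl22l1 at 29.4 to 47.8 and 8.92 to 46.9 CPM. Their log2 ratio differed by 0.02 between tissue and lymphoid source means (exact permutation p = 0.976). Rps27l fell by 0.77 against 1.19 for Rps27, and Rpl7l1 by 0.31 against 0.65 for Rpl7; the exact permutation p-values of these ratios were 0.190 and 0.357. Rpl39, at the exit tunnel, fell by 0.98 with lymphoid levels of 51.4 to 102 CPM, while Rpl39l, known from the testis, stayed between 0 and 3.13 CPM in every Treg library. Rpl3 fell by 0.44 (0.05 with spleen as the only reference), Rpl10 by 0.58 and Rps4x by 0.62; their relatives Rpl3l and Rpl10l were below the filter.

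Rps4l was the member that went the other way. It is annotated as a transcribed pseudogene (chr6:148354656-148355598, plus strand, mm10) and was at 1.54 through 2.43 to 5.88 CPM in the 9 lymphoid Treg libraries and 2.85 through 7.07 to 12.5 CPM in the 18 tissue libraries. The tissue median was above the highest lymphoid library, and the ranges overlapped. Its log2 fold change was 1.26 ± 0.27 (edgeR, adjusted p = 0.00148). The log2 ratio of Rps4l to Rps4x was higher in tissue by 1.97 (exact permutation p = 0.0238, the smallest possible; 0.143 adjusted over the 6 paralog pairs examined). Rpl39l over Rpl39 was higher by 1.93 (exact permutation p = 0.0476, adjusted 0.143).

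**Figure D2:**
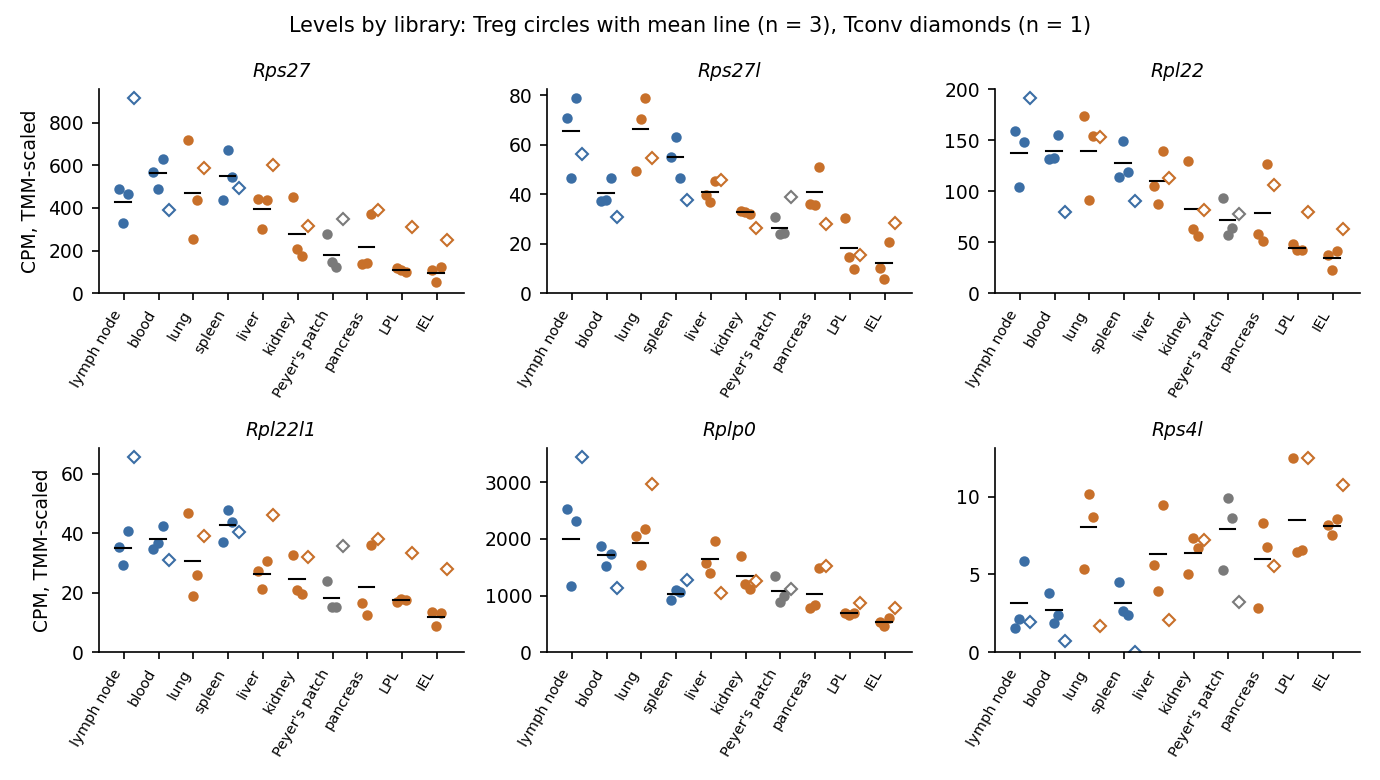
Level of 6 members in every library (vertical axes, TMM-scaled CPM, from 0), by source; circles are Treg libraries with their mean (n = 3), diamonds the single Tconv library, blue lymphoid, grey Peyer's patch, orange tissue. Rps27, Rps27l, Rpl22, Rpl22l1 and Rplp0 are lowest in IEL and LPL, and Rps4l is lowest in the lymphoid sources.

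The size of the difference depended on the source. The 7 single-source comparisons all use the same 9 lymphoid Treg libraries, so they are not independent of each other. In IEL, 77 of 85 members were lower and 1 higher (background 7.77% lower and 13.5% higher; member median -1.82), and in LPL 75 were lower and 1 higher (9.7% and 17.4%; median -1.44). In IEL 77 members lay below all 9 lymphoid libraries in each of their 3 libraries and 1 lay above, where 7.3% of all genes lay below and 10.2% above without overlap. In LPL 75 lay below and 1 above (8.71% and 11.5% of all genes). Rps18, which lies in the head of the small subunit, had the smallest p in IEL and fell by 2.47. In LPL, Rps19, the gene most often mutated in Diamond-Blackfan anaemia, fell by 2.15. Rps4l was the member that rose in both, by 1.44 in IEL and by 1.53 in LPL.

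Pancreas, Peyer's patch and kidney lay between, with large differences among their own libraries. In pancreas 17 members were lower and 0 higher (background 2.31% and 7.64%; median -0.82), among them Rps21 (-1.28). This count rose to 68 without pancreas Treg replicate 6 and to 42 without lymph node replicate 6, was 0 without pancreas replicate 1 or 5, 11 without spleen replicate 2, and 2 to 4 without any of the other lymphoid libraries except blood replicate 4, which did not move it. In Peyer's patch 12 were lower and 1 higher (0.625% and 2.94%; median -0.92), with Rps21 (-1.57) and Rps27 (-1.50) first and Rps4l (1.37, edgeR adjusted p = 0.0474) higher. The Peyer's patch count was 36 without lymph node replicate 6, 24 without its own replicate 1, 0 without its replicate 2 or 3, and 2 to 6 without any of the other lymphoid libraries but spleen replicate 2. In kidney 3 were lower and 0 higher (4.26% and 12.2%; median -0.64): Rpl7l1 (-0.59), Rps28 (-1.18) and Rps21 (-1.01). The kidney share of 3.53% is near the background. Its count was 44 without kidney replicate 1, 7 without lymph node replicate 6 and 1 without each other library but spleen replicate 2. For these 3 sources the shares of all genes with a library left out are not reported here.

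The library with the highest member share within kidney, pancreas and Peyer's patch was also the one with most counts on mitochondrial genes and on the non-coding gene Gm26917. Kidney replicate 1 had 1.77% mitochondrial counts against 0.478% in both other libraries, and 2.23% on Gm26917 against 0.862% and 0.823%. Pancreas replicate 6 had 0.909% mitochondrial counts against 0.539% and 0.498%, and Peyer's patch replicate 1 had 1.27% against 0.846% and 0.845%. The part of these features in the members' levels was not tested. Markers of other cells also moved with these sources. In kidney 14 of 15 early response and 6 of 10 heat shock genes, 5 of 6 myeloid, 4 of 5 endothelial and all 4 tested kidney tubule markers were higher than in lymphoid Treg. Kidney tubule markers took 0.148% of counts in kidney replicate 1 and 0.00410% and 0.00267% in the other 2 libraries, against at most 0.000824% in lymphoid Treg, where Kap, Lrp2 and Miox were at 0. Myeloid markers took 0.00264% to 0.0251% in kidney and 0.000523% to 0.00356% in lymphoid Treg. In pancreas all 8 acinar markers were higher, at 1.93% to 9.10% of counts, and 4 of 6 myeloid markers. In Peyer's patch 5 of 8 intestinal epithelial markers were higher, at 0.00368% to 0.00701% of counts. The part of these cells in the members' levels was not tested.

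In lung and liver no member passed as lower. In lung 0 members were lower and 1, Rps4l (1.44, edgeR adjusted p = 0.0167), was higher (background 2.85% and 8.64%); no member was lower at an unadjusted p under 0.05 and DESeq2 called 0 lower, and the median was 0.04. Without lung replicate 1 the lung count was 3 and the median -0.25. In liver 0 were lower and 0 higher (0.162% and 0.955%; 0 lower and 1 higher at an unadjusted p under 0.05, 0 lower by DESeq2), with a median of -0.22. The liver values with the smallest p below 0 were Rpl22l1 at -0.54 and Rps21 at -0.59, with edgeR adjusted p-values of 0.469 and 0.521. Few genes of any kind passed in liver. In lung 4 of 6 myeloid markers and 2 of 3 tested lung epithelial markers were higher than in lymphoid Treg, and in liver 3 of 5 hepatocyte markers.

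**Figure D3:**
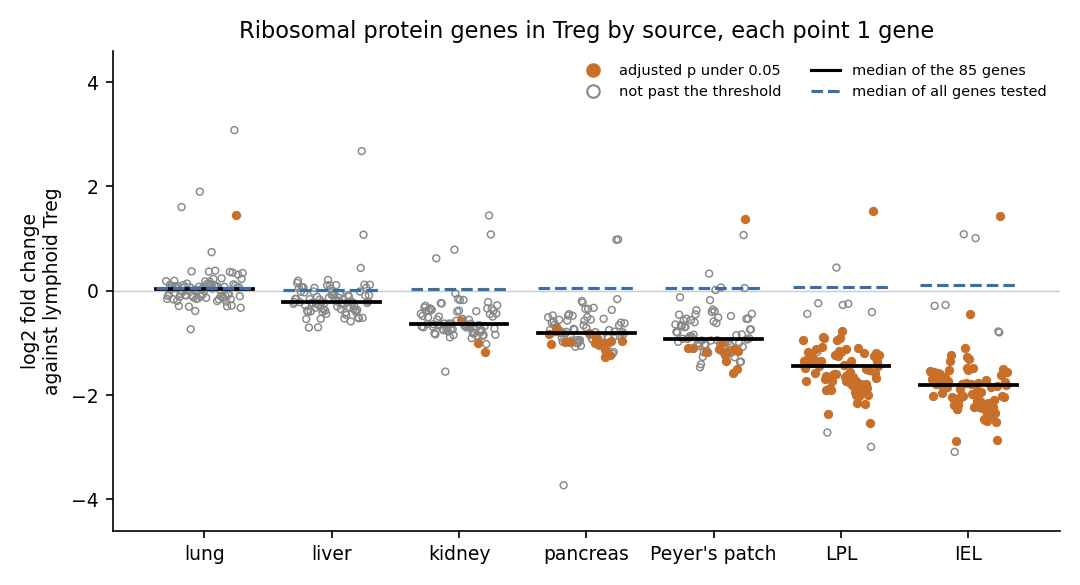
Log2 fold change of each of the 85 tested members against lymphoid Treg (vertical axis), by source; filled points passed an adjusted p under 0.05, black lines are the members' medians and dashed blue lines the medians of all genes tested. The medians run from 0.04 in lung to -1.82 in IEL, and the filled points above 0 are Rps4l.

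The gut wall differed from the other tissues directly. Set against kidney, liver, lung and pancreas, IEL and LPL had 75 of 85 members lower and 0 higher (background 10.6% and 13%; median -1.28; edgeR), and 74 to 76 when any 1 library was left out. For 41 members all 6 gut wall libraries lay below the other 12 tissue libraries and for 0 above, against 1.84% and 1.99% of all genes. Rps3 ran from 323 through 443 to 504 CPM in gut wall and from 546 through 1295 to 1969 CPM in the other tissues, with no overlap, and fell by 1.47. Rplp0 was at 469 to 701 CPM against 789.5 to 2175 CPM, also without overlap, and fell by 1.24. Intestinal epithelial markers, all 8 of which were higher than in lymphoid Treg in IEL and in LPL, took 0.00581% to 0.0844% of counts in the gut wall libraries and 0.000518% to 0.00443% in the lymphoid ones. Against the other tissues these 8 were also higher in gut wall, while all 6 myeloid markers, 6 of 8 pancreatic acinar markers and 3 of 6 B cell markers were lower and 1 B cell marker higher. Myeloid markers took 4.81e-05% to 0.000362% of counts in gut wall, with Adgre1 at 0 in every library, and 0.00121% to 0.167% in the other tissues. B cell markers took 0.00304% to 0.00481% and 0.00194% to 0.00733%. The part of these other cells in the members' levels was not tested. Across all 10 Treg sources 76 of 85 members differed (34.5% of all genes did; edgeR F test), with Rps3 and Rpl8 among those with the smallest p.

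Treg and Tconv were compared within sources over all 40 libraries. There 23 of 85 members were lower in Treg and 1 was higher (background 6.73% and 8.17%; edgeR; member median -0.35 against -0.01 for all genes). Rps21 (-0.80), Rpl22l1 (-0.65) and Rpl31 (-0.72), a large-subunit protein near the exit tunnel, had the smallest p. Rpl7l1 was the one higher in Treg, by 0.17 (adjusted p = 0.0482). The count rests on few Tconv libraries: it was 11 without the IEL or the lymph node Tconv library and 12 without the LPL one. By share of counts, Treg were below Tconv in 8 sources and above in 2, with a mean difference of -0.514 percentage points (SD 0.804, n = 10; exact sign-flip permutation test, two-sided p = 0.0703). All 3 Treg libraries lay below the Tconv library in lymph node (-2.01), lung (-1.22), pancreas (-1.05), IEL (-0.666), LPL (-0.612) and Peyer's patch (-0.457), and all 3 lay above it in blood (0.890). In spleen, kidney and liver the Treg libraries lay on both sides.

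In Tconv alone, tissue against lymphoid (6 libraries against 3) gave 0 of 84 members by edgeR, 0 lower and 1 higher at an unadjusted p under 0.05, and 0 lower by DESeq2; no gene of any kind passed (background 0% and 0%). The median of the members was -0.44. Rpl36a had -0.57, Rps3a1 -0.77 and Rps19 -0.82, none past the threshold, and Rps4l had 2.86 (edgeR adjusted p = 0.267). The test of whether the tissue difference was unlike in Treg and Tconv called 0 of 86 members (background 0.649% and 0.235%; 2 at an unadjusted p under 0.05; 1 by DESeq2 and 1 by edgeR without lymph node Treg replicate 10). Rps4l came nearest (-2.32, edgeR adjusted p = 0.075), followed by Rpl38 (-0.91) and Rpl22 (-0.66).

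Ribosomal protein mRNAs are short, so the members were set beside other short genes. Over all genes, length and change were related in these libraries: across 10 bins of median transcript length with equal numbers of genes, the median log2 fold change between tissue and lymphoid Treg of genes that are no members ran from -0.37 in the shortest bin to 0.13 in the longest. The 36 members of that shortest bin had a median of -0.92. Against 8859 other genes whose merged exon length lay in the members' 5th to 95th percentile (median -0.02; 11.1% lower), the members were lower by 0.83 (88.2% lower). Matching the mean level as well left 4391 genes with a median of -0.04 and 17.1% lower. The narrowest contrast was with 2166 genes whose transcripts were no longer than the tested members' median of 774 bases: these had a median of -0.36 and 14.7% lower, 0.50 above the members. In lung, where no member passed as lower, the length trend ran the other way, from 0.084 in the shortest to -0.18 in the longest bin, and in IEL it ran from -0.39 to 0.26. With length fitted as a smooth offset for each library, 77 members were lower in tissue Treg (18.3% of all genes), and with length and level 68 (13.6%). With transcript length in place of merged exon length these counts were 76 and 66. The offsets on transcript length were chosen after the data were seen.

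**Figure D4:**
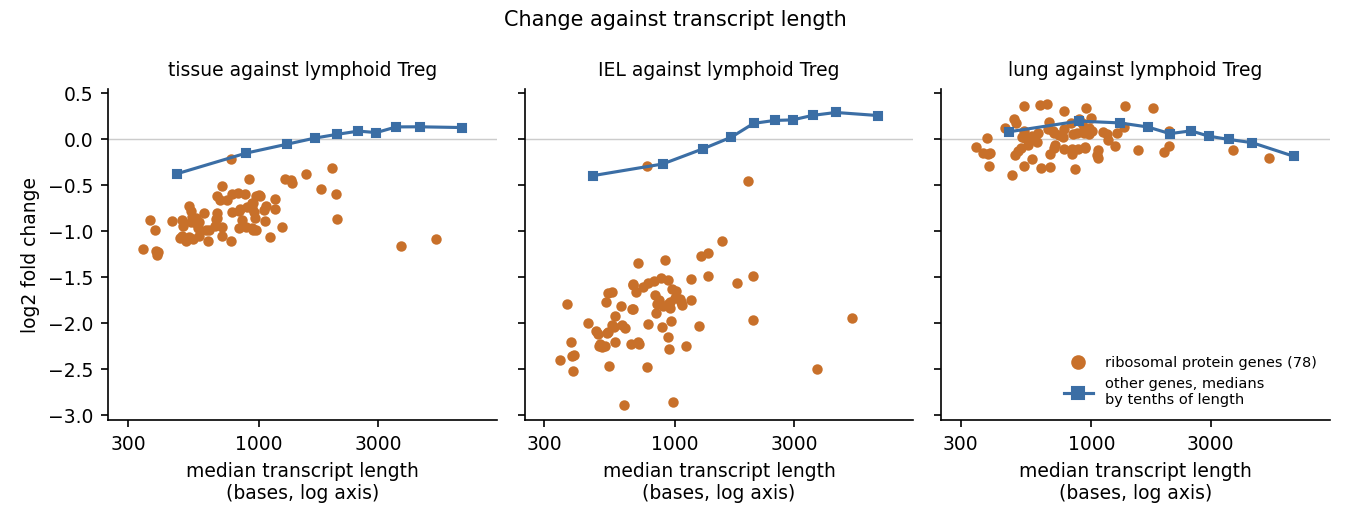
Log2 fold change against lymphoid Treg (vertical axis) by median transcript length (horizontal log axis, bases) in all tissues, IEL and lung; orange points are 78 coding members with a mean of at least 10 CPM, blue squares the medians of all other genes in 10 bins of length. In all tissues and in IEL all 78 members lie below the median of the other genes in their bin, and in lung 62 of 78 do, by a smaller distance (median difference -0.12, against -0.59 and -1.59).

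Among the members themselves, the shorter ones had the larger differences. In the 26 shortest by transcript length (345 to 624 bases) the median log2 fold change was -0.97, in the middle 26 it was -0.78 and in the 26 longest -0.70; in IEL these were -2.11, -1.79 and -1.74. Across the 78 coding members with at least 10 CPM, Spearman's rho between fold change and transcript length was 0.49, with level 0.30 and with merged exon length 0.18. This is a description across genes that share the libraries and are not independent replicates. Rps20 (median transcript of 3706 bases, -1.16) and Rps15a, the member with the longest transcript (5130 bases, -1.08), stood outside the trend.

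Rps3a1 and the pseudogene Rps3a3 divided the libraries in a way that sources did not. Rps3a1 encodes a small-subunit protein, and 76.1% of the 50-base words in its 3′ end occur in other genes. The share of Rps3a3 in the counts of the pair was 0.156% to 1.65% in 3 libraries (lung, liver and spleen Treg replicates 1, 1 and 4), 12.4% to 15.3% in the 4 blood libraries, 23.4% to 31.5% in 12 libraries and 62.6% to 71.8% in 21. Replicates of a source could lie far apart: lung Treg replicate 1 had 888.4 CPM of Rps3a1 and 1.38 CPM of Rps3a3, and lung replicate 5 had 83.9 and 203 CPM. Pancreas Treg replicate 6 had 23.4%, against 68.9% and 70.2% in replicates 1 and 5. Peyer's patch Treg replicate 1 had 28.2%, against 66.9% and 70% in replicates 2 and 3. These pancreas and Peyer's patch libraries also had the highest member share of their source. Kidney Treg replicate 1, highest in kidney, did not lie apart (26.35%, against 28.2% in replicates 3 and 5). Kidney Treg and Tconv were all in the range from 23.4% to 31.5%, IEL, LPL and lymph node all in the highest. These ranges were noticed after the data were seen and are not the study's groups, and how they arose was not tested. The fold changes of Rps3a1 and Rps3a3 depend on which of these libraries stand in each group.

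The tissue comparison was therefore also made within ranges, as an alternative chosen after the data were seen. Among the 15 Treg libraries with Rps3a3 over 50% of the pair, 77 of 83 tested members were lower in IEL, LPL, lung and pancreas than in lymph node (background 9.31% lower; median -1.26). Among the 9 with 20% to 50%, 0 of 85 were lower in kidney, liver and pancreas than in spleen by edgeR (background 0.0643%; 4 at an unadjusted p under 0.05; median -0.15). The second set holds no gut wall library and only 2 spleen libraries, so the sets differ in tissues and in reference as well as in the pair.

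**Figure D5:**
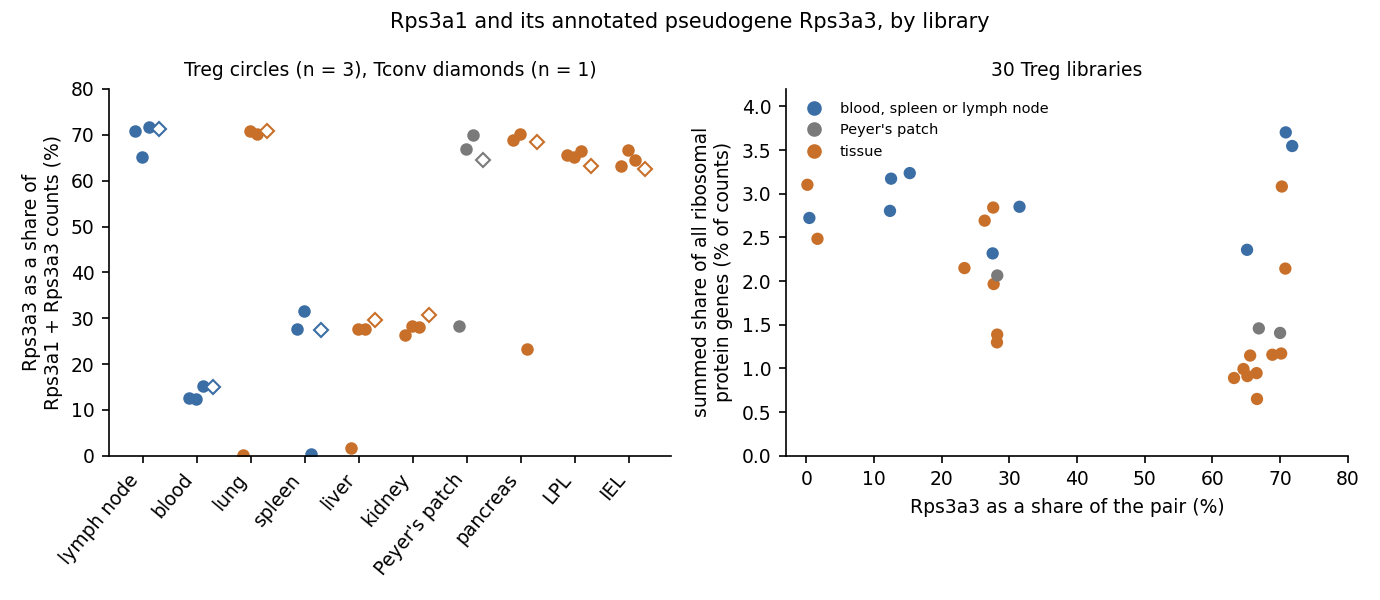
Left, Rps3a3 as a percentage of the counts of Rps3a1 and Rps3a3 together (vertical axis) by source, Treg circles (n = 3) and Tconv diamonds (n = 1); right, the same percentage (horizontal axis) against the members' summed share of counts (vertical axis) in the 30 Treg libraries. The values fall under 2%, at 12.4% to 15.3%, at 23.4% to 31.5% and above 62%, and within the highest range the members' share runs from 0.650% in an IEL library to 3.70% in a lymph node library.

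Over the 10 Treg source means, 73 of the 85 tested members had a Pearson r of at least 0.9 with the members' summed share, which contains them, and 5 had r under 0.5: Rps4l (-0.70), Rps10 (-0.18), Rpl39l (-0.09), Rpl24 (0.35) and Rps3a3 (0.44). The genes outside the group most like it by this measure were Ndufs4 (0.990), Eef1b2 (0.988), Tbca (0.986), Psmg4 (0.986) and Ndufa1 (0.985). Ndufs4 and Ndufa1 are subunits of respiratory complex I, Eef1b2 is a translation elongation factor subunit, Tbca a tubulin chaperone and Psmg4 a proteasome assembly chaperone. The points are 10 source means that share library preparation and depth.

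Other genes of the translation machinery had smaller median differences; over all genes 9.98% were lower in tissue Treg and 11.9% higher. Of 23 translation factors and partners whose mRNAs carry a TOP tract, 11 were lower (47.8%) and 0 higher in tissue Treg (median -0.31), led by the elongation factor subunits Eef1b2 (-0.81) and Eef1d (-0.49), Fau (-0.71), whose product is a ubiquitin-like fusion to a ribosomal protein, and Rack1 (-0.61), a scaffold on the small subunit. Of 35 ribosome assembly genes 15 were lower (42.9%) and 0 higher (median -0.30), led by Nop10 (-0.98), Nip7, Nhp2 and Nop2. Among 18 mTORC1 and MYC regulators, 3 were lower (16.7%) and 1 higher (5.56%), with a median of 0.03, near the shares of all genes. Among them Myc fell by 0.66, Max by 0.57 and Mxd4 by 0.40, and Mxd1, a MAX partner that opposes MYC, rose by 1.89. Myc averaged 278 ± 59.9 CPM in the 9 lymphoid and 181 ± 66.3 CPM in the 18 tissue Treg libraries (SD).

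Lists outside the cytosolic ribosome also held more lower calls than the 9.98% of all genes. Of 77 tested mitochondrial ribosomal protein genes 34 were lower (44.2%) and 0 higher (median -0.33), of 78 nuclear-encoded respiratory chain subunits 40 (51.3%) and 0 (median -0.40), and of 18 proteasome core subunits 13 (72.2%) and 0 (median -0.36). Their median transcripts had 1226, 751 and 1174 bases, against 774 in the members and 2266 in all genes tested, and their median levels were 31.8, 70.3 and 143 CPM, against 169.6 and 8.02 CPM. In IEL these lists had medians of -0.64, -0.92 and -0.84, against -1.82 for the ribosomal protein genes. Early response genes went the other way, with 14 of 15 higher in tissue Treg (11.9% of all genes) and a median of 3.17; Fos, a transcription factor induced quickly by stimulation or handling, rose by 4.79 and Junb by 3.33. They were also higher in lung (11 of 15, against 8.64% of all genes, median 1.78), where no ribosomal protein gene passed as lower. The lung Treg libraries did not share this rise evenly. Their mean log2 CPM over the early response list ran from 5.76 to 8.23, with a mean of 6.69. Replicates 5 and 6, at 5.76 and 6.09, lay inside the range of the lymphoid Treg libraries, from 4.42 in blood to 6.12 in spleen. Only replicate 1, at 8.23, lay above it. The list was not higher in liver (0 of 15 higher and 1 lower). B cell markers were lower in tissue (5 of 6; summed 0.00194% to 0.00733% of counts in tissue and 0.00335% to 0.0245% in lymphoid Treg libraries), and T cell markers took 0.330% to 0.503% and 0.391% to 0.535%. Mitochondrial genes took 0.478% to 1.82% of counts in tissue and 0.935% to 2.27% in lymphoid Treg. The part of the early response, of other cells and of RNA handling in the members' levels was not tested.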

How the data were processed

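The deposited table holds raw read counts per gene, which the authors made from QuantSeq 3′ mRNA libraries prepared by Lexogen, per the labels' protocols. Per the submitters' processing notes, reads were handled with FastQC, Trim Galore, STAR on mm10, featureCounts and MultiQC, and DESeq2 and DESeq are also named; versions, the annotation release, strand use and the treatment of multi-mapping reads are not given in the sources used here. Symbols were assigned through gene identifiers (55154 of 55421 matched), and every row named a gene. Without strand use, antisense reads count toward the gene they overlap.

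The count tests were run with edgeR 4.0.16 under R 4.3.3: filterByExpr, TMM scaling, and a robust quasi-likelihood fit with a mean per source over the 30 Treg libraries (for Treg against Tconv, source as an additive factor over all 40), with Benjamini-Hochberg adjusted p under 0.05 as the threshold. Lymphoid means blood, spleen and lymph node with equal weight. Shares were compared with exact permutation tests in Python 3.11.15 with scipy 1.17.1. DESeq2 1.42.0, other references, offsets for length, a replicate block, no filter on low counts and leaving out each library were the alternatives. The fits and offsets were also run on simulated counts in which genes varied independently of each other. The outcomes are not reported here.

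Named genes were the 5 lower and 5 higher members with the smallest p in tissue against lymphoid Treg (3 and 3, or 2 and 2 for single sources, elsewhere), the 3 highest and lowest tested members by mean level, a fixed set of members with known roles and paralogs, members called against the common direction, up to 4 genes of each list and the 5 genes most alike; some genes that the rule names are not reported here. The members and lists were chosen with earlier results of these data known. No single-library interval is given, since the spread between libraries exceeds counting error.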

Additional observations from a re-analysis of the deposited data

Results flagged for a closer look

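In the 9 lymphoid Treg libraries Rpl39 stood at 102.1 CPM in spleen Treg replicate 3, far from the next library (75.3 CPM) for a group whose lowest library had 51.4 CPM. This was 1 of 34 groups looked at, and chance sets about 1 in 20 groups apart in this way.

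The members' difference from lymphoid Treg was unlike in the gut wall and the other tissues: 75 of 85 were lower in IEL and LPL than in kidney, liver, lung and pancreas by edgeR's quasi-likelihood test. Mitochondrial genes took 0.591% to 0.787% of counts in the gut wall libraries and 0.478% to 1.82% in the other tissues, and the part of this in the difference was not tested.

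The members' share of counts moved in opposite directions between Treg and Tconv in different sources. All 3 Treg libraries were above the Tconv library in blood (0.890 percentage points) and all 3 were below it in lymph node (-2.01), Peyer's patch (-0.457), lung (-1.22), pancreas (-1.05), IEL (-0.666) and LPL (-0.612). With 1 Tconv library per source, the difference between sources was not tested. The lymph node Tconv library had the highest share of all 40, 5.21%.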

How the results depend on the processing

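The counts of members lower in IEL, in LPL and in the gut wall against other tissues, and the 76 that differed across sources, stayed within 1.5 times of their main value under every alternative run. For tissue against lymphoid Treg (75 lower) the count fell to 23 with spleen as the reference, 7 without IEL and LPL, 0 with counts summed per source and 0 in the libraries with Rps3a3 at 20% to 50% of the pair. For kidney (3) it was 1 without a filter on low counts, 34 with a length offset, 6 with length and level, 16 with transcript length, 8 by DESeq2 and 0 against spleen alone. For pancreas (17) these settings gave 7 without the filter, 68 with length, 61 with transcript length, 5 with transcript length and level, 46 by DESeq2, 11 against lymph node alone and 0 against spleen alone. For Peyer's patch (12) they gave 3 without the filter, 44 with length, 34 with transcript length, 5 with transcript length and level, 48 by DESeq2 and 1 against spleen alone. Treg against Tconv (23) gave 39 with length and level, and the test of the difference between Treg and Tconv (0) gave 1 by DESeq2. Except where given above, the shares of all genes lower under these settings are not reported here. The same holds for the replicate block and for fits with a library left out. These counts therefore do not separate a change in the members from a change over all genes. In tissue against lymphoid Treg a length offset moved the share of all genes lower from 9.98% to 18.3%. The share difference of -1.25 became -0.845 without IEL and LPL. The cause was not tested.

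Same-numbered libraries did not deviate together (58 pairs, median r -0.0026, lowest -0.37, against 347 other pairs, median -0.0002). Of 6 Tconv libraries, 0 correlated best with their own number. The numbers were therefore not used to pair samples in the main fits. These correlations cannot show whether libraries with the same number share an animal. With the replicate number as a block, the counts were 45 for tissue against lymphoid Treg, 0 for kidney, 5 for pancreas, 0 for Peyer's patch and 0 for Treg against Tconv, and the block changed no other count by more than 1.5 times.

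Leaving out 1 library at a time, the counts ran from 74 to 78 for tissue, 1 to 44 for kidney, 0 to 3 for lung, 0 to 68 for pancreas, 0 to 36 for Peyer's patch, 11 to 34 for Treg against Tconv and 0 to 1 for the difference between Treg and Tconv, and the share difference from -1.39 to -1.16. Log2 fold changes of 5 genes turned direction in 17 cases. Rps3a2 was -0.98 against spleen alone and -0.35 summed per source, and ran from -0.21 (without lung Treg replicate 1) to 1.98 with 1 library left out. Rps10 was -0.086 with length, -0.11 with length and level, -0.55 against spleen alone and -0.11 without IEL and LPL, and ran from -0.086 to 0.24 with 1 library left out. Rpl24 was 0.76 with the replicate block and 0.037 summed per source, and ran from -0.75 to 0.14 with 1 library left out. Against spleen alone Rplp0 was 0.072 and Rpl3 0.052. Of the other results for named genes, 76 were no longer past the threshold, 12 newly past it and 1135 unchanged in call. A DESeq2 test over all sources jointly was not run. Depth limits the members under 1 CPM, 7 of 88.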
